A study of Danio rerio with 8 samples.

Results

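Control *sox10*+ cells of zebrafish were compared between 2 and 2.5 days post fertilization (dpf), as a view of normal maturation over this interval. The comparison used the 4 control libraries of a series of 8, with 2 libraries at each age. The cells came from Tg(*sox10*:kikGR) embryos, in which *sox10* regulatory sequence drives KikGR, a fluorescent protein that can be photoconverted. The embryos were dissociated with collagenase and trypsin, dead cells were excluded with SYTOX Blue, and KikGR+ cells were collected by fluorescence-activated cell sorting (FACS). The control embryos were siblings of embryos mutant for *slc30a1a* and *slc30a1b*, which encode zinc exporters, and the labels give no genotype beyond "control". The study describes both an intercross of double heterozygotes and a cross in which every sibling would lack *slc30a1b*, so the zinc exporter genotype of the sorted controls is not known. The 4 mutant libraries of the same ages are used only where they are named. Nothing in the labels says that the 2 libraries of an age came from separate pools of embryos, and the p-values then measure only the spread between these libraries. All values of 2 dpf came from one table and all values of 2.5 dpf from another, so that age and table cannot be told apart.

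*sox10* encodes a transcription factor of the neural crest, a population of cells that leaves the dorsal neural tube and forms much of the head skeleton, the pigment cells, and the neurons and glia of the peripheral nervous system. Crest cells of the pharyngeal arches (PA) are patterned by signals from the surrounding tissue and condense into the cartilages of the jaw and gills. *sox10* is kept in Schwann cells and other glia, is used by oligodendrocytes of the central nervous system, and is also active in the otic vesicle, the epithelium that forms the inner ear. A *sox10* transgene therefore labels several lineages, which start to make their specialised products at about these ages. Lens, blood, muscle, and most skin cells are not derived from the neural crest.

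Levels were FPKM, which are fragments scaled by transcript length and by the mapped total of each library, rescaled so that the median ratio between libraries was 1. Fold changes are differences on the log2(rescaled FPKM + 1) scale, which understates the changes of low genes. *sox10* was at 65.8 and 103 rescaled FPKM at 2 dpf and at 103 and 121 at 2.5 dpf, and it did not pass the test (log2 fold change 0.43, SE 0.26, adjusted p = 0.36). The targeted exporter *slc30a1a* was at 12.1 and 11.7 deposited FPKM in the 2 dpf controls and at 8.56 and 11.2 in the 2.5 dpf controls, and *slc30a1b* was listed at 0 in 3 of the 4 and at 0.08 in the other. After rescaling, *slc30a1a* was at 14.8 and 14.3 against 7.22 and 8.71, which missed the threshold (log2 fold change −0.80, SE 0.19, adjusted p = 0.0689). The 4 libraries held 22265 to 23369 genes above 0, and the 10 most abundant genes took 25.2 and 26.6% of the FPKM at 2 dpf against 21.8 and 21.9% at 2.5 dpf. The number of reads behind the values is unknown.

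Of 16321 genes tested, 913 passed the threshold of an adjusted p of 0.05 (5.59%), and 344 of them were higher at 2.5 dpf (2.11%) and 569 were lower (3.49%). The genes that rose were mostly of low level, with a median of 3.09 rescaled FPKM, and the genes that fell were of higher level, with a median of 24.1. On the log2(rescaled FPKM + 1) scale, falls were also the larger changes. This scale understates the changes of low genes, such as most of those that rose, so that the sizes are not directly comparable. Changes of over 2 on this scale, which for low genes is not the same as over 4-fold in level, were found for 17 genes that rose and 156 that fell. The median log2 fold change was 1.18 among all genes called higher and −1.48 among all called lower. The median over all genes tested was 0.02, but it depended on the level of the gene. It was 0.17 for the 5664 genes below 2 rescaled FPKM, −0.19 for the 3913 genes from 10 to 100, and −1.19 for the 93 genes above 1000, of which 45 fell and 1 rose. With this rescaling, abundant genes as a class were therefore lower at 2.5 dpf. Other scalings were not examined by level. With quantile normalization the median of ribosomal protein genes, an abundant group described below, was −0.41 instead of −1.18. The filter required a mean of 0.5 FPKM over the 4 libraries, and 93 of the genes that rose averaged less than this at 2 dpf and 52 of those that fell averaged less at 2.5 dpf. These entered through the age at which they were high, which favours a difference.

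**Figure D1:**
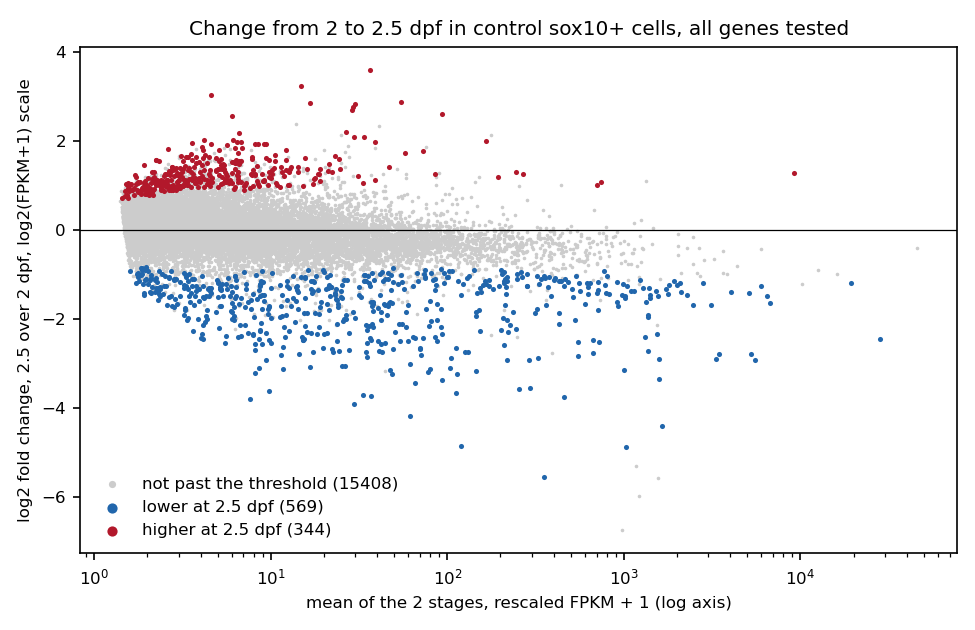
The log2 fold change from 2 to 2.5 dpf is plotted against the mean level of each of the 16321 genes (rescaled FPKM + 1, log axis). The 344 genes called higher lie mostly at low levels, and the 569 genes called lower reach the highest levels, where the cloud of all genes also lies below 0.

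The calls depended on single libraries and on the scaling. Without 2 dpf replicate 1, no gene passed by limma, with 3225 genes at an unadjusted p under 0.05, and without 2 dpf replicate 2 the number was 160 (14 higher and 146 lower). Leaving out 2.5 dpf replicate 1 gave 782 genes and leaving out 2.5 dpf replicate 2 gave 424. With the deposited scaling the median of all genes moved to 0.44, and 3112 genes were called higher and 405 lower. When 1 library was left out, 900 to 910 of the 913 genes still passed the filter and all of these kept their direction. The ages overlapped in none of the 913 genes, so that leaving out 1 library could hardly reverse a direction. This is therefore no check of the calls. All 913 also had their direction with the deposited scaling.

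**Figure D2:**
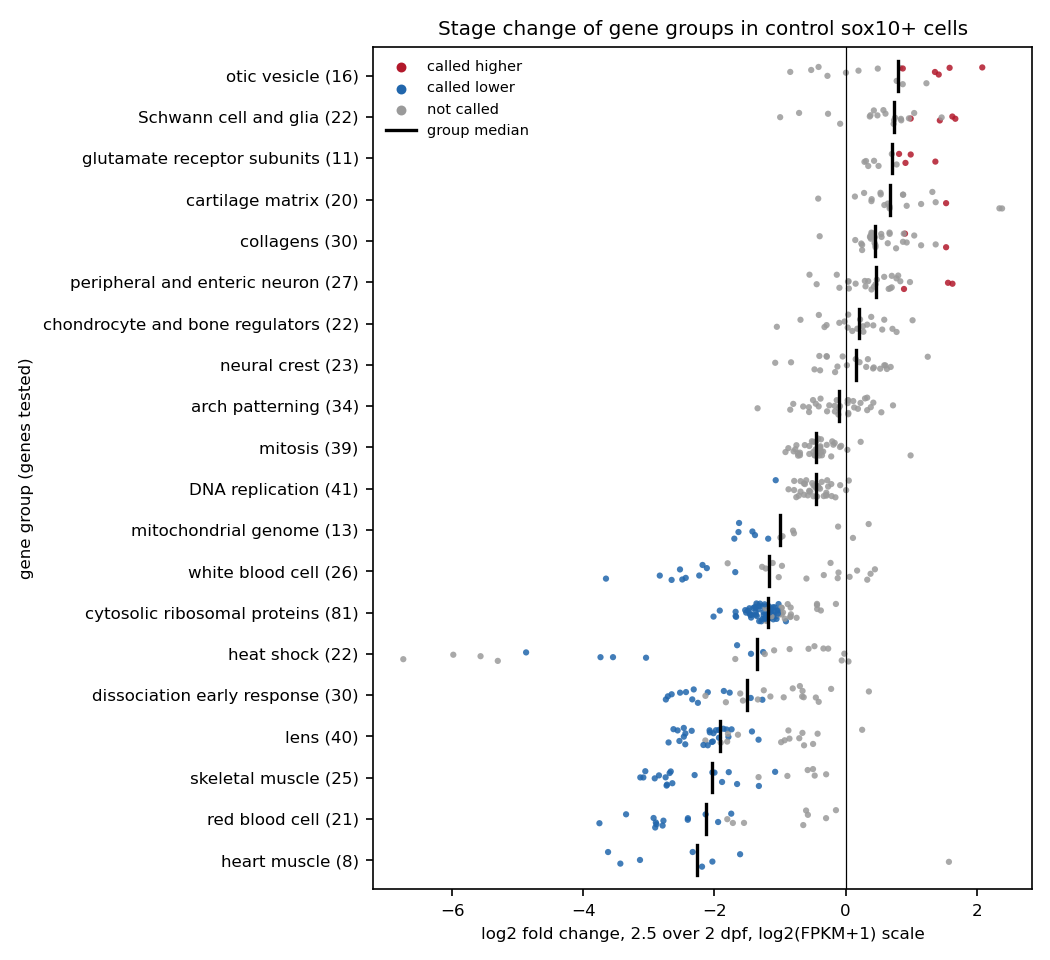
Each point is a gene of the named group, placed by its log2 fold change from 2 to 2.5 dpf, and the bar is the median of the group (genes tested in parentheses). Medians run from −2.26 for heart muscle to 0.81 for the otic vesicle, with neural crest and arch patterning genes on both sides of 0.

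Of 22 genes of Schwann cells and glia, 4 rose (2.11% of all genes did) and none fell, with a median log2 fold change of 0.74. Above in both 2.5 dpf libraries were 14 and below in both were 2, against 28.6% and 28.4% of all genes. The ages did not overlap in either direction for 57% of all genes. The change was below 0 in 4 of the 22, and 2 were lower at an unadjusted p under 0.05 by limma. Fitted with all 8 libraries, 7 of 21 were called higher and 1 lower. Of the 22, the number called higher was 14 with the deposited scaling and 3 with quantile normalization. It was 2 with a replicate block and 0 without a filter. The summed level of the group, 2725 and 1944 rescaled FPKM against 2555 and 2150, overlapped between the ages. *mbpa*, which encodes myelin basic protein, was at 0.807 and 0.704 rescaled FPKM at 2 dpf and at 4.29 and 3.27 at 2.5 dpf (log2 fold change 1.44, SE 0.20, adjusted p = 0.0242). *cldnk*, a claudin of myelinating glia, was at 6.62 and 6.56 against 19.4 and 26 (log2 fold change 1.63, SE 0.21, adjusted p = 0.0233). *cldn19*, a claudin of Schwann cells in mammals, rose by 0.99 and *cd59*, a membrane regulator of complement, by 1.67 on the log2 scale. The peripheral myelin gene *mpz* was below 1 rescaled FPKM in each library, at 0.318 and 0.0972 against 0.868 and 0.80, and *erbb3b*, the neuregulin receptor of Schwann cells, was at 0.184 and 0.243 against 0.75 and 0.87. Neither passed the threshold (adjusted p = 0.0859 and 0.0773), and in both the ages did not overlap. Of the 22, 3 averaged under 0.5 FPKM at 2 dpf, *mpz* and *erbb3b* among them, and 0 of these were called. They entered through the age at which they were high, which favours a separation of the ages.

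Several genes outside the list, chosen after their values were seen, have roles in oligodendrocytes or other central glia. *mag*, which encodes myelin-associated glycoprotein, was at 0.783 and 0.814 against 3.84 and 4.88 rescaled FPKM (log2 fold change 1.57, adjusted p = 0.0209). *myrf*, the myelin regulatory factor of oligodendrocytes, was at 0.318 and 0.34 against 1.65 and 1.67, and *gpr17*, a receptor of oligodendrocyte precursors, was at 1.11 and 1.18 against 3.62 and 3.51. *kcnj10a*, a potassium channel of glia, was at 0.196 and 0.109 against 3.37 and 2.77 (log2 fold change 1.82, adjusted p = 0.0124). *myrf* and *kcnj10a* averaged under 0.5 FPKM at 2 dpf and entered through the age at which they were high. Genes picked by their values are no measure of central glia as a group. All levels are bulk levels, in which more cells of a type and more RNA per cell cannot be told apart. The same holds for the falls below.

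Of 27 genes of peripheral and enteric neurons, 3 rose and none fell, with a median log2 fold change of 0.46. Above in both 2.5 dpf libraries were 16 of them, against 28.6% of all genes, and 2.11% of all genes rose. Below in both were 2, against 28.4% of all genes, and 4 had a log2 fold change below 0. The summed level of the group, 1315 and 704 rescaled FPKM against 1025 and 1088, overlapped between the ages. Of the 27, 5 averaged under 0.5 FPKM at 2 dpf, and 1 of these was called. *th*, tyrosine hydroxylase, which starts the synthesis of catecholamines, was at 0.758 and 0.486 rescaled FPKM at 2 dpf and at 5.51 and 2.84 at 2.5 dpf (log2 fold change 1.63, SE 0.29, adjusted p = 0.0381). *dbh*, which converts dopamine to noradrenaline, was at 6.41 and 4.15 against 17.7 and 16.8 (log2 fold change 1.56, SE 0.24, adjusted p = 0.028). Both enzymes of this pathway were thus higher in each 2.5 dpf library than in either 2 dpf library, as was every gene called higher. The neurotrophin receptor *ntrk3a* rose by 0.89 on the log2 scale. *phox2bb*, a transcription factor of autonomic and enteric precursors, was at 37.7 and 21 against 46.8 and 68.3 and did not pass (log2 fold change 0.98, adjusted p = 0.141). The neuropeptide gene *vipb*, chosen after its values were seen, was at 0.881 and 0.437 against 6.09 and 5.33 (log2 fold change 2.03, adjusted p = 0.0156).

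Of 26 subunits of glutamate receptors found, 15 were below the filter and 11 were tested, of which 4 rose (2.11% of all genes did) and none fell. Of the 11, 4 passed the filter through 2.5 dpf alone, 2 of them called, so that the count is no measure of the family. The genes that rose included the AMPA receptor subunits *gria1b* (0.294 and 0.376 against 1.18 and 1.53 rescaled FPKM) and *gria4a* (0.832 and 0.911 against 2.37 and 2.69), and the delta subunit *grid1b* (2.32 and 1.71 against 8.36 and 5.43). The adjusted p-values of these genes lay between 0.0414 and 0.0489, and with quantile normalization none of the 11 passed. Of 28 genes of synaptic vesicle release, 1 rose (3.57%, against 2.11% of all genes). This was *rab3ab*, from 11.5 and 6.10 to 41.8 and 43.4 (log2 fold change 2.21, SE 0.29, adjusted p = 0.0241). It encodes a Rab3A protein, a small GTPase of synaptic vesicles.

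Of 21 genes of the inner ear found, 16 were tested and 5 of them rose (2.11% of all genes did), with a median log2 fold change of 0.81. Of the 5, 2 averaged under 0.5 FPKM at 2 dpf. None of the 16 fell, but 4 had a log2 fold change below 0, and 2 were lower at an unadjusted p under 0.05 by limma. Above in both 2.5 dpf libraries were 9 and below in both were 3, against 28.6% and 28.4% of all genes. The summed level of the group, 202 and 250 rescaled FPKM against 249 and 356, overlapped between the ages. *stm* encodes starmaker, a protein of the otolith, the mineral body on which the ear senses gravity. It was at 15.4 and 8.97 rescaled FPKM at 2 dpf and at 58.1 and 48.8 at 2.5 dpf (log2 fold change 2.08, SE 0.28, adjusted p = 0.0241). *otomp*, which encodes otolith matrix protein, was at 10.7 and 11.4 against 30.2 and 41.1 (log2 fold change 1.59, SE 0.22, adjusted p = 0.0242). *tmc2a*, which encodes a subunit of the transduction channel of hair cells, was at 0.563 and 0.425 against 1.88 and 1.59, and *pvalb9*, a calcium-binding protein of hair cells, was at 6.21 and 6.01 against 14.1 and 21.2. The zona pellucida-like gene *zpld1a* rose by 1.42 on the log2 scale. *coch*, which encodes the inner ear matrix protein cochlin and was chosen after its values were seen, was at 0.661 and 0.376 against 2.98 and 2.29 (log2 fold change 1.26, adjusted p = 0.0303). It also averaged under 0.5 FPKM at 2 dpf. Products of both otolith and hair cell were therefore among the genes that rose.

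**Figure D3:**
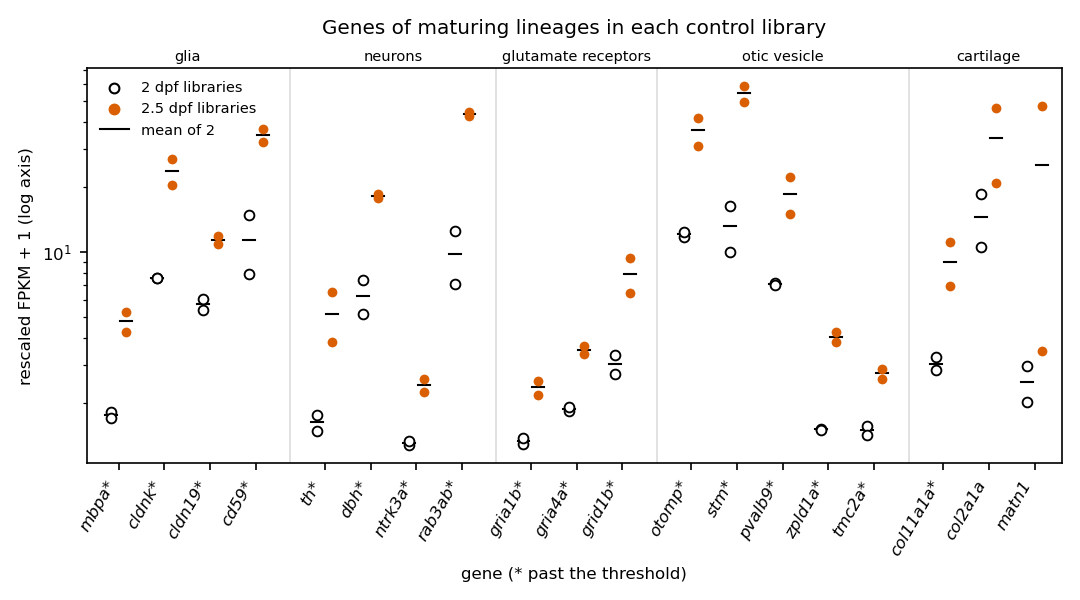
The level of each gene in each of the 4 control libraries is shown (rescaled FPKM + 1, log axis), with the 2 dpf libraries as open points, the 2.5 dpf libraries as filled points, and the mean of 2 as a bar. The ages do not overlap for any of the 19 genes, which holds for every gene called and for 57% of all genes tested. *matn1* is spread from 2.47 to 46.4 rescaled FPKM between the 2.5 dpf libraries.

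Cartilage matrix genes shifted upward, but 1 of 20 passed the threshold (5%, against 2.11% of all genes called higher). *col11a1a*, which encodes a chain of the fibrillar collagen of cartilage, was at 1.84 and 2.25 rescaled FPKM at 2 dpf and at 5.93 and 10.1 at 2.5 dpf (log2 fold change 1.53, SE 0.28, adjusted p = 0.0389). Of the 20, 19 had a log2 fold change above 0, with a median of 0.67. Above in both 2.5 dpf libraries were 13, against 28.6% of all genes. Of 24 genes found, 4 were below the filter, and 3 of the 20 averaged under 0.5 FPKM at 2 dpf. These 3 entered through the age at which they were high, which favours a rise, and 0 of them were called. The main cartilage collagen *col2a1a* was at 9.53 and 17.7 against 19.8 and 45.6 (log2 fold change 1.15, SE 0.45, adjusted p = 0.185), and the fibril-associated collagen *col9a1a* at 8.45 and 17.4 against 13.7 and 27.9, with overlap. Replicates differed widely in this group. *matn1*, a matrilin of cartilage, was at 1.03 and 1.97 against 2.47 and 46.4, and the summed level of the group was 94.3 and 179 against 153 and 433, so that 1 of the 2.5 dpf libraries lay within the range of 2 dpf.

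Among the 30 collagen genes tested, those of cartilage included, 29 had a log2 fold change above 0, with a median of 0.46. *col11a1a* and *col6a3* (ENSDARG00000095915) rose, which is 6.67% of the 30, against 2.11% of all genes. *col6a3*, a chain of the microfibrillar collagen of connective tissue, was at 0.196 and 0.376 against 1.47 and 1.34 rescaled FPKM. Of the 30, 5 averaged under 0.5 FPKM at 2 dpf, and *col6a3* was the only 1 of these called. Regulators of cartilage and bone did not pass, with 0 of 22 called. The osteoblast regulator *runx2b* was at 6.25 and 10.8 against 4.51 and 2.63 (log2 fold change −1.05, SE 0.32, adjusted p = 0.118).

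None of 23 neural crest genes and none of 34 arch patterning genes passed the test. An unadjusted p under 0.05 was found for 7 and 5 of them, respectively, and for 4090 of all 16321 genes. Their medians, 0.15 and −0.10, lay close to the 0.02 of all genes. *foxd3*, a factor of early crest that is later kept in glia, was at 21.7 and 25.5 rescaled FPKM at 2 dpf and at 78.8 and 41.7 at 2.5 dpf (log2 fold change 1.25, SE 0.32, adjusted p = 0.0792). *twist1a*, a factor of arch mesenchyme, was at 156 and 274 against 80.0 and 119 (log2 fold change −1.07, SE 0.34, adjusted p = 0.121). In both genes the ages did not overlap. The 2.5 dpf replicates of *foxd3* and the 2 dpf replicates of *twist1a* were also apart.

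The arch genes spanned both directions. *nkx3.2*, a factor of the jaw joint, was at 21.4 and 42.9 against 8.87 and 14.5 rescaled FPKM (log2 fold change −1.34, SE 0.38, adjusted p = 0.099). *dlx2a*, a factor of all arches, was at 86 and 109 against 54.7 and 69.3 (log2 fold change −0.65, adjusted p = 0.145), and *nr2f1b*, a nuclear receptor of dorsal arch cells, was at 9.49 and 12.3 against 5.42 and 6.18 (log2 fold change −0.80, adjusted p = 0.0855). *hand2*, a factor of the ventral arches and of autonomic neurons, was at 69.5 and 113 against 127 and 170 (log2 fold change 0.72, adjusted p = 0.195). With 2 libraries an age, differences as large as that of *nkx3.2* thus missed the threshold, which does not show that the levels were equal.

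**Figure D4:**
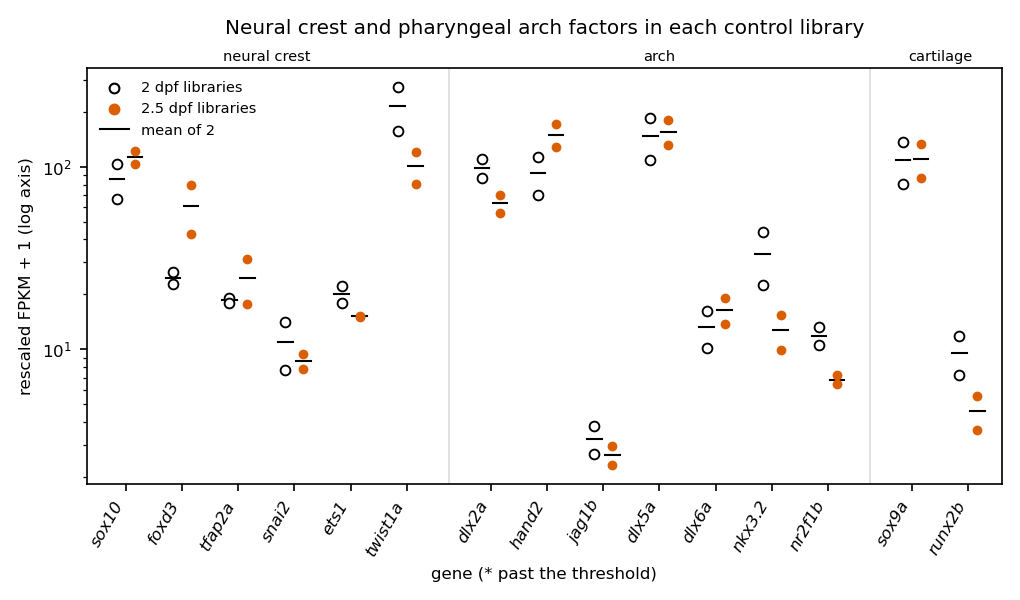
Levels of neural crest, arch, and cartilage factors in each control library are shown (rescaled FPKM + 1, log axis), with open points for 2 dpf, filled points for 2.5 dpf, and bars for the mean of 2. None of the 15 genes passed the threshold, and *nkx3.2* and *twist1a* lie lower and *foxd3* higher in both 2.5 dpf libraries.

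Signals and receptors changed singly, and the shares called were mostly near the 5.59% of all genes. They were 6.9% for guidance and migration, 4.88% for BMP and TGF-β, and 10.3% for retinoic acid genes. Of 58 guidance and migration genes, *nrp1a*, *plxna1a*, and *unc5b*, receptors for semaphorins and netrin, rose by 1.39, 1.08, and 1.04 on the log2 scale, and the chemokine receptor *cxcr4b* fell from 72.5 and 50.9 to 16.9 and 18.1 rescaled FPKM (log2 fold change −1.74, SE 0.23, adjusted p = 0.0235). *cxcr4b* is used both by migrating embryonic cells and by white blood cells. Of 29 genes of the retinoic acid pathway, the synthetic enzyme *aldh1a3* (3.03 and 2.57 against 8.31 and 8.30), the receptor *rargb*, and the retinol carrier *rbp4* rose. Of these 3, 1 averaged under 0.5 FPKM at 2 dpf. Of 41 genes of the BMP and TGF-β pathways, 2 fell, including the inhibitory *smad7*, from 25.1 and 24.2 to 12.1 and 13.4 (log2 fold change −0.90, adjusted p = 0.0477). *hoxd4a* was the single member called among 46 Hox genes (log2 fold change 0.97, adjusted p = 0.0468). This is 2.17% of them, against 2.11% of all genes called higher. None of 31 Notch, 43 Wnt, 28 FGF, and 17 Hedgehog pathway genes passed.

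*gch2*, which makes the pteridine precursor used by xanthophores, was at 73.2 and 157 rescaled FPKM at 2 dpf and at 7.79 and 3.13 at 2.5 dpf (log2 fold change −4.17, SE 0.48, adjusted p = 0.0181). The other 10 xanthophore genes tested did not pass, so that 9.09% were called, against 3.49% of all genes called lower. None of 11 melanophore and 13 iridophore genes passed. In the mutants, *gch2* was at 139 and 354 rescaled FPKM at 2 dpf, and at 2.5 dpf it was at 77.3 in replicate 1 and at 4.94 in replicate 2. *CABZ01021592.1* and *si:dkey-251i10.2*, which carry no description in the table beyond their names, had the same pattern. *CABZ01021592.1* had the largest fall of the genes called, from 374 and 1005 to 18.3 and 7.92 (log2 fold change −5.55), and in the 2.5 dpf mutants it was at 370 and 12. The levels of these genes thus differed widely between the mutant libraries of 2.5 dpf, which share age and genotype.

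Genes of lens, muscle, heart, and red blood cells fell. Of 40 lens genes, 25 fell and none rose, with a median log2 fold change of −1.92. Of 25 skeletal muscle genes 19 fell, of 8 heart muscle genes 7 fell, and of 21 red blood cell genes 13 fell, with medians of −2.03, −2.26, and −2.13, and none rose in these groups. The background was 3.49% of all genes called lower. Of the 40 lens genes, 7 averaged under 0.5 FPKM at 2.5 dpf, and 3 of these were called. Of the 25 skeletal muscle genes, 3 did so, and 1 of these was called. The summed levels dropped to 0.219 (lens), 0.141 (skeletal muscle), 0.131 (heart muscle), and 0.145 (red blood cells) of the level at 2 dpf. The crystallin *crybb1* was at 142 and 113 rescaled FPKM at 2 dpf and at 19.8 and 45.4 at 2.5 dpf (log2 fold change −2.04, SE 0.39, adjusted p = 0.0429), and the γ-crystallin *crygm2d21* at 18.2 and 8.38 against 0.961 and 1.17. Whether a change in the share of such cells contributed to the other results was not tested. *lim2.1*, a membrane protein of lens fibres, fell by 1.33 on the log2 scale.

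The red cell genes included the most abundant of these. The embryonic globin *hbbe3* was at 1106 and 588 rescaled FPKM against 114 and 30.3 (log2 fold change −3.75, SE 0.63, adjusted p = 0.0343), and the group summed to 49039 and 30964 against 7883 and 3753. *alas2*, which starts haem synthesis in red cells, was at 16.7 and 7.09 against 2.25 and 1.98, *gata1a*, their master transcription factor, at 4.94 and 3.10 against 0.573 and 0.381, and the anion exchanger *slc4a1a* at 12 and 7.74 against 1.78 and 1.13. None of these genes overlapped between the ages, which holds for every gene called. In muscle, the creatine kinase *ckma* was at 42.5 and 32.1 against 4.98 and 4.97 (log2 fold change −2.67, SE 0.21, adjusted p = 0.0102). The myosin light chain *mylpfa* was at 76.2 and 44.7 against 8.79 and 5.98, and the α-actin *actc1b* at 257 and 199 against 35.9 and 30.2. Of the heart, the atrial and ventricular myosin light chain *myl7* was at 107 and 62 against 10.4 and 6.68, the cardiac myosin light chain *cmlc1* at 137 and 101 against 13.4 and 7.39, and the natriuretic peptide *nppb* at 20.1 and 14.1 against 0.337 and 0.567.

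Of 26 white blood cell genes, 10 fell (3.49% of all genes did) and none rose, with a median log2 fold change of −1.16. The genes that fell included products of neutrophils. Lysozyme, *lyz*, was the most abundant, at 47132 and 48160 rescaled FPKM at 2 dpf and at 11024 and 7019 at 2.5 dpf (log2 fold change −2.44, SE 0.28, adjusted p = 0.0184). Myeloid peroxidase, *mpx*, was at 130 and 163 against 26.4 and 24, and *npsn*, a protease of neutrophils, at 1279 and 1169 against 241 and 186 (log2 fold change −2.49 and −2.52, adjusted p = 0.0102 for both). The cytokine *il1b* was at 169 and 245 against 21.3 and 10.8, and the gelatinase *mmp9* at 54.6 and 66.9 against 16 and 9.81. The gene *mpeg1.1*, a perforin of macrophages, was at 42.4 and 54.3 against 50.2 and 58.8, and *spi1b*, a transcription factor of all myeloid cells, at 41.3 and 53 against 72.6 and 32.9. Neither passed (log2 fold change 0.18 and 0.06, adjusted p = 0.645 and 0.937), and a difference between neutrophil and macrophage genes was not itself tested.

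Of 30 early response genes, which are induced within minutes of stress such as tissue dissociation, 13 fell and none rose (median log2 fold change −1.51). The share of all genes that fell was 3.49%. *fosab* was at 2187 and 2867 rescaled FPKM against 766 and 319, *junbb* at 1770 and 2949 against 460 and 264, *egr1* at 794 and 1073 against 199 and 128, and *atf3* at 107 and 133 against 18.2 and 18.1. All are stress-responsive transcription factors, and none of the 4 overlapped between the ages, which holds for every gene called. Of 22 heat shock genes 7 fell, against 3.49% of all genes, and 1 of the 7 averaged under 0.5 FPKM at 2.5 dpf. They were led by the chaperone *hsp90aa1.2* at 2734 and 1262 against 47.7 and 81.7 (log2 fold change −4.87, SE 0.43, adjusted p = 0.0108). The constitutive chaperone *hspa8* fell by 1.26, from 652 and 632 to 254 and 282. The inducible *hsp70l* was at 3149 and 701 against 2.19 and 59.3, and *hsp70.1* at 3675 and 1059 against 5.95 and 139. Their differences of −6.74 and −5.98 exceeded that of *hsp90aa1.2*, but the replicates of each age were widely spread, and neither passed (adjusted p = 0.0509 and 0.0636).

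**Figure D5:**
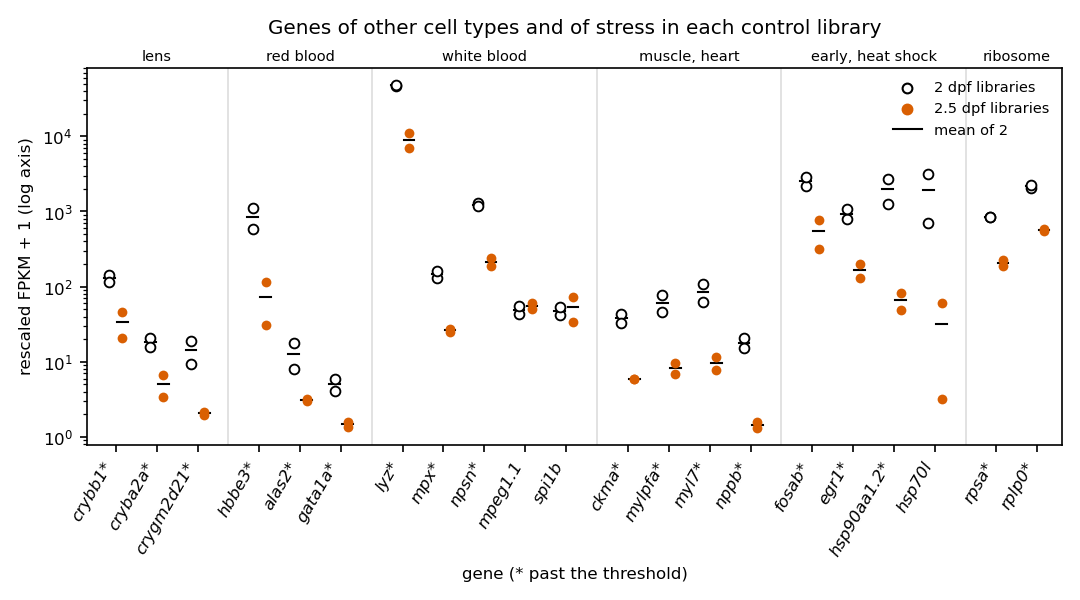
The level of each gene in each of the 4 control libraries is shown (rescaled FPKM + 1, log axis), with open points for 2 dpf, filled points for 2.5 dpf, and bars for the mean of 2. Lens, blood, muscle, heart, and stress genes are lower in both 2.5 dpf libraries, with *mpeg1.1* and *spi1b* as the genes whose ages overlap. No gene called overlaps between the ages, so that for all but *hsp70l* the separation follows from the call.

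Ribosomal protein genes were the largest group to fall. Of 81 genes, 59 fell (3.49% of all genes did) and 79 were below in both 2.5 dpf libraries (28.4% of all genes were). The median log2 fold change of the 81 was −1.18. *rpsa* was at 834 and 848 rescaled FPKM against 189 and 228 (log2 fold change −2.01, SE 0.19, adjusted p = 0.0124), and *rplp0*, a protein of the ribosomal stalk, at 2062 and 2242 against 550 and 587. These genes are among the most abundant, and the median of −1.19 over the 93 genes above 1000 rescaled FPKM was close to theirs. The 93 genes include ribosomal protein genes such as *rplp0*, so that these medians are not independent. With quantile normalization, which sets the highest levels of the libraries equal, the median became −0.41 and 4 genes fell, and with the deposited scaling it was −0.60 with 29. With a replicate block 1 of the 81 fell, and with all 8 libraries 75 did. Of the 13 genes of the mitochondrial genome 6 fell, including *mt-co1*, a subunit of cytochrome oxidase (11782 and 8697 against 3263 and 3264), and the complex I subunit *mt-nd3*, which fell by 1.62 on the log2 scale. Their median of −0.99 changed sign to 0.03 with quantile normalization, with none called. Of 96 nuclear genes of the respiratory chain 2 fell, and their median was −0.22. This median also changed sign, to 0.28 with quantile normalization and to 0.36 with the deposited scaling.

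Cell cycle genes were mostly lower at 2.5 dpf, but few passed the test. Of 41 DNA replication genes *tk1*, a thymidine kinase, fell, from 19.2 and 18.8 rescaled FPKM to 9.67 and 7.53 (log2 fold change −1.07, SE 0.20, adjusted p = 0.0421). This is 2.44% of them, against 3.49% of all genes called lower. None of 39 mitosis genes passed, and 17 were at an unadjusted p under 0.05 in the lower direction (2014 of all 16321 genes were). The mitotic kinase *cdk1* was at 165 and 193 against 101 and 93 (log2 fold change −0.87, adjusted p = 0.0569). Both medians were −0.45, and 36 of the 41 and 34 of the 39 genes were below in both 2.5 dpf libraries (28.4% of all genes were). Fitted with all 8 libraries, 10 and 7 of them fell. With quantile normalization, a replicate block, or the deposited scaling, 0 of either group fell. With the deposited scaling these medians were 0.08 and 0.07, below the 0.44 of all genes.

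Skin genes followed no single direction. Of 27, *agr1*, *icn2*, *anxa1b*, and *anxa1c* fell and *cldna* rose (18.5% called, against 5.59% of all genes). Among the genes that fell, 1 averaged under 0.5 FPKM at 2.5 dpf. *agr1*, which encodes a secretory protein of mucous cells, was at 17.1 and 21 against 1.98 and 1.76 rescaled FPKM, and *anxa1c*, an annexin, at 16.7 and 12.2 against 0.792 and 0.761. The claudin *cldna* was at 2.29 and 2.23 against 7.81 and 8.85. Keratins separated the 2.5 dpf libraries instead, with *krt4* at 244 and 199 against 64.8 and 284, and *krt91* at 6.84 and 8.40 against 4.96 and 55.9. Replicate 2 at 2.5 dpf was thus the higher one for keratins as for *matn1* and the inducible *hsp70* genes. Of 15 genes of liver and pancreas, the trypsin gene *prss1* rose (1.90 and 2.73 against 9.10 and 14.7) and *apoa1a*, an apolipoprotein of plasma lipoproteins, fell by 1.09. The share called was 13.3%, against 5.59% of all genes. Of 26 genes of the retina *opn1sw1*, *rcvrna*, and *gngt2b* of photoreceptors rose, and 13 more were below the filter. The share of all genes that rose was 2.11%. *opn1sw1* was listed at 0 in both 2 dpf libraries and at 0.978 and 1.12 rescaled FPKM at 2.5 dpf. It passed the filter through 2.5 dpf alone, and did not pass the test with all 8 libraries (adjusted p = 0.12 by limma) or with either 2 dpf library left out.

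The largest single rises included the histone *hist1h2ba* and genes with clone-type symbols. *zgc:171759* (ENSDARG00000109737) had the largest, from 3.60 and 5.72 to 69.7 and 62.7 rescaled FPKM (log2 fold change 3.59, SE 0.24, adjusted p = 0.0102). *hist1h2ba*, an H2B histone, was at 1.47 and 2.1 against 32.7 and 19.1 (log2 fold change 3.24), while *h3f3d*, an H3 histone of the replacement type, had the most significant fall, from 3224 and 3027 to 159 and 137 (log2 fold change −4.40, SE 0.19, adjusted p = 0.00794). In the mutants these changes were 3.77, 3.07, and −4.16. Histone genes lie in families of near-identical copies, and 5 tested identifiers carried the symbol *zgc:171759*, of which the other 4 did not pass, so that their levels are uncertain. Identifiers that share the symbol *zgc:165555* were called in both directions, with log2 fold changes of −3.91, 2.01, and 1.36. The carboxypeptidase gene *cpn1* (ENSDARG00000096728) was listed at 0 in both 2 dpf controls and at 7.97 and 9.77 deposited FPKM at 2.5 dpf, but was at 8.37 and 17 in the 2 dpf mutants, and a second identifier of that symbol did not pass. *dctpp1*, a pyrophosphatase of dCTP, was listed at 0 in both 2.5 dpf controls and was also at 0 in 1 of 2 mutant libraries at each age. *rab27b*, a small GTPase of secretory vesicles, was at 19 and 25.9 against 244 and 81, and *irx3b*, an Iroquois transcription factor, at 2.64 and 0.522 against 8.03 and 9.27. The cytoskeletal genes *cfl1* and *rhoab*, chosen after their values were seen, fell by 3.13 and 3.16 on the log2 scale in the controls and by 2.98 and 2.47 in the mutants.

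The mutants of the same ages, sequenced in the same tables, gave the difference in stage change between genotypes. No gene of 16703 passed this test (smallest adjusted p = 0.314 by limma, 803 genes at an unadjusted p under 0.05). Of 885 genes called in the controls and tested in the mutants, 862 had the same direction (97.4%), against 76.6% of all 15788 genes tested in both. Over the genes tested in both genotypes, the medians lay close together for mitochondrial genome genes (−0.99 in controls and −0.96 in mutants), ribosomal protein genes (−1.18 and −0.92), and all collagens (0.45 and 0.47). Those for lens (−2 and −0.15), red blood cell (−2.13 and −0.43), skeletal muscle (−2.17 and −0.75), and white blood cell genes (−1.16 and −0.32) were nearer to 0 in the mutants. So were those for otic vesicle (0.78 and 0.02) and cartilage matrix genes (0.88 and 0.32). In these groups some genes reached an unadjusted p under 0.05 for the difference by limma, and none passed after adjustment. They were 17 of 24 in skeletal muscle, 15 of 21 in red blood cells, 16 of 28 in the lens, and 9 of 26 in white blood cells. In the otic vesicle they were 6 of 15, and in the cartilage matrix 1 of 15. Both tables also differed in annotation, with more transcripts listed at 2.5 dpf for 1786 of the 16321 genes tested. The share of genes called was 3.98% among those and 5.79% among the 14535 with the same transcripts.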

How the data were processed

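RNA of sorted *sox10*+ cells was measured in 8 libraries, of which the 4 control libraries were compared. Per the labels and the methods, the authors made cDNA from poly(A)+ RNA, aligned reads to GRCz11 with HISAT, and estimated levels with StringTie. edgeR is also named, and versions are not given in the sources used here. Each age has 1 deposited table of FPKM by gene. The tables were joined by identifier (25926 in both, with 6131 in the 2.5 dpf table alone not used). Genes averaging 0.5 FPKM or more in the 4 controls were kept. Libraries were divided by median-ratio factors of 0.817 and 0.823 (2 dpf) and 1.19 and 1.29 (2.5 dpf).

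Ages were compared by limma 3.58.1 in R 4.3.3 (lmFit, and eBayes with trend) on log2(FPKM + 1). The p-values of all tested genes were adjusted by Benjamini-Hochberg, and genes under 0.05 were called. FPKM are not counts, so no count test was used. An exact permutation test of 2 against 2 libraries cannot go below p = 0.333. The interaction of genotype and age was fitted over all 8 libraries. Alternatives were the deposited scaling, quantile normalization, a pseudocount of 0.1, no filter, a filter of 2 FPKM, no trend, all 8 libraries, a replicate block, and each library left out.

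The libraries and the 44 gene lists were chosen with earlier results of these data known, and lists are described without a test. The rule for named genes took the 15 largest rises and falls called, called members of lists, the first 5 members and the 3 with the smallest p of each list, genes listed at 0 at 1 age, list members whose replicates differed over 4-fold, and *sox10*, *slc30a1a*, and *slc30a1b*. Not every gene that the rule allows is named, and some are not reported here. No sequences or positions are given, since the reference tables used here were of another assembly.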

Additional observations from a re-analysis of the deposited data

How the results depend on the processing

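The number of genes called in the controls was 913 (344 higher and 569 lower). It was 3517 with the deposited scaling (3112 higher), which also moved the median to 0.44, 526 with quantile normalization (188 higher and 338 lower), 76 without a filter (8 and 68), and 1969 with all 8 libraries (884 and 1085). With 1 library left out, it ranged from 0 to 782, with 0 to 238 higher and 0 to 544 lower. The pseudocount of 0.1, the filter of 2 FPKM, and the fit without a trend stayed within 1.5 times. With a replicate block the number was 257 (56 higher and 201 lower). The 2 replicate numbers are only shared numbers, with no stated pairing. For the difference between genotypes, 1 gene passed with a pseudocount of 0.1 (*cpn1*), and 0 to 1 with a library left out. Of the genes named, 4 that had not passed changed sign when 1 library was left out: *spi1b* ranged from −0.49 (without 2.5 dpf replicate 1) to 0.63, *krt4* from −1.74 to 0.37 (without 2.5 dpf replicate 1), *krt91* from −0.51 (without 2.5 dpf replicate 2) to 2.73, and *mpeg1.1* from −0.025 (without 2 dpf replicate 1) to 0.34. The cause of these changes was not tested. FPKM hold no read counts, so that no floor or counting interval can be given for low genes.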
